A study of Mus musculus with 33 samples.

Results

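Opa1, Oma1, Mfn1, Mfn2, Dnm1l, Fis1, Pink1, Bnip3, Bnip3l and Fundc1 control how mitochondria fuse, divide and are removed. These 10 genes were taken by symbol from the 32245 genes of each table. The RNA came from cardiomyocytes of mice, the muscle cells that make the heart contract, and is labelled as nuclear RNA. Of 33 samples in 4 mouse lines, 27 libraries in 3 tables were analysed, and the 6 samples of a line with the Ptpmt1 knockout alone were not analysed here. Ptpmt1 is a phosphatase of the inner mitochondrial membrane needed to make cardiolipin. The FST table (named, like the other 2, as in the sample titles) held 3 libraries each of the double mutant (cardiomyocyte-specific Ptpmt1 knockout with the Eif2a mutation), the Ptpmt1 knockout, the Eif2a mutant and control. The PHT table held 2 doubles (cardiomyocyte-specific Ptpmt1 knockout with Hri knockout), 3 Ptpmt1 knockouts, 2 Hri knockouts and 2 controls. The labels call the Hri knockout cardiomyocyte-specific in the single mutant and give no cell type for it in the double. The PTGC table held 3 doubles (cardiomyocyte-specific Ptpmt1 knockout with Gcn2 knockout) and 3 controls, with neither single mutant. The sources used here do not give the Cre driver, the nature of the Eif2a mutation, the alleles that controls carry, or the age and pooling of animals. Nothing in the labels says that libraries of a group came from separate animals, so p-values measure the spread between these libraries.

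Mitochondria in an adult cardiomyocyte are packed between the myofibrils and are renewed slowly. This renewal uses rounds of fusion and fission and mitophagy, the engulfment of damaged mitochondria by autophagosomes. Mfn1 and Mfn2 fuse the outer membranes and Opa1 the inner ones, while the GTPase encoded by Dnm1l constricts and divides the organelle. Pink1 marks depolarised mitochondria for ubiquitin-dependent removal, and Bnip3, Bnip3l and Fundc1 are outer-membrane receptors that bind the autophagosome directly. Oma1 is a stress-activated protease of the inner membrane that cleaves Opa1 and also, through Dele1, passes mitochondrial stress to the kinase Hri. Hri and Gcn2 phosphorylate the alpha subunit of eIF2, called Eif2a in the labels, and so start the integrated stress response.

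The libraries held 1887978 to 19405261 reads in genes. By the number of genes detected, a pair of FST libraries stood apart. Double replicate 2, the shallowest, had 15336 and Eif2a mutant replicate 1 had 15157, while all others detected at least 17567. Sample quality weights are low for a library that departs from its group. In FST they were lowest for Eif2a mutant replicate 1 (0.221), Ptpmt1 knockout replicate 3 (0.288), double replicate 2 (0.344) and control replicate 3 (0.471). The lowest member counts came from double replicate 2, with 29 reads for Fundc1 and 30 for Oma1. The 12 cardiomyocyte markers, Myh6 and Tnnt2 among them, made up 4.33 to 7.36% of the signal in every library. Ptpmt1 was at 45.2 ± 4.87 normalized counts in FST doubles, 35.5 ± 4.71 in Ptpmt1 knockouts, 157 ± 6.69 in Eif2a mutants and 163 ± 10.3 in controls (SD, n = 3 each). In PHT it was at 77.4 ± 0.957 in doubles (n = 2), 48.8 ± 13.8 in Ptpmt1 knockouts (n = 3), 264 ± 28.1 in Hri knockouts (n = 2) and 265 ± 33.6 in controls (n = 2), and in PTGC at 71.2 ± 4.48 in doubles and 328 ± 35.4 in controls (n = 3 each). Its exons overlap those of other genes over 52.3% of their length. Eif2ak1, which encodes Hri, was at 475.5 and 544.7 normalized counts in PHT doubles, 517 to 630.3 in Ptpmt1 knockouts, 389 and 416 in Hri knockouts and 548 and 590.4 in controls, without a call in Hri knockouts against controls (-0.50 ± 0.12, adjusted p = 0.812) or in doubles against controls (-0.16 ± 0.12, adjusted p = 0.825). Eif2ak4, which encodes Gcn2, overlapped between PTGC doubles (313 to 386) and controls (251 to 491). A deletion of part of a gene may leave counts over the rest, so these values check the labels only in part, and a mutation within Eif2s1, the gene of the alpha subunit of eIF2, is not checked by its count. By sex-linked transcripts, 2 of 3 FST doubles, 3 of 3 Ptpmt1 knockouts, 3 of 3 Eif2a mutants and 1 of 3 controls were male. The PHT doubles and Hri knockouts were all male, 1 of 3 Ptpmt1 knockouts and 0 of 2 controls were, and each PTGC group had 2 males among 3.

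None of the 10 genes was called in any of 13 comparisons, with limma on log2(normalized count + 1) and an adjusted p under 0.05 over all genes tested. The smallest adjusted p among the 130 values was 0.248. All 10 genes passed the filter on low values in each table. All fold changes here are on that log2 scale, ± SE, and intervals are 95% intervals that are not adjusted for the number of genes. Of the 110 differences between 2 groups, 97 were smaller than 0.3 in either direction and the largest was 0.66. The interval lay within 1.5-fold either way for 85 of the 110 and within 2-fold for 109. Opa1, Mfn1 and Mfn2 had all 11 of their intervals within 1.5-fold, while Oma1 had 3 of 11, so the precision differed between the genes. Fundc1, with similarly few reads to Oma1, had 7. For scale, Asns, the asparagine synthetase gene of the integrated stress response, was at 976 to 1452 normalized counts in FST Ptpmt1 knockouts and 211.5 to 259.5 in controls (2.36 ± 0.15, adjusted p = 1.56e-06).

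**Figure D1:**
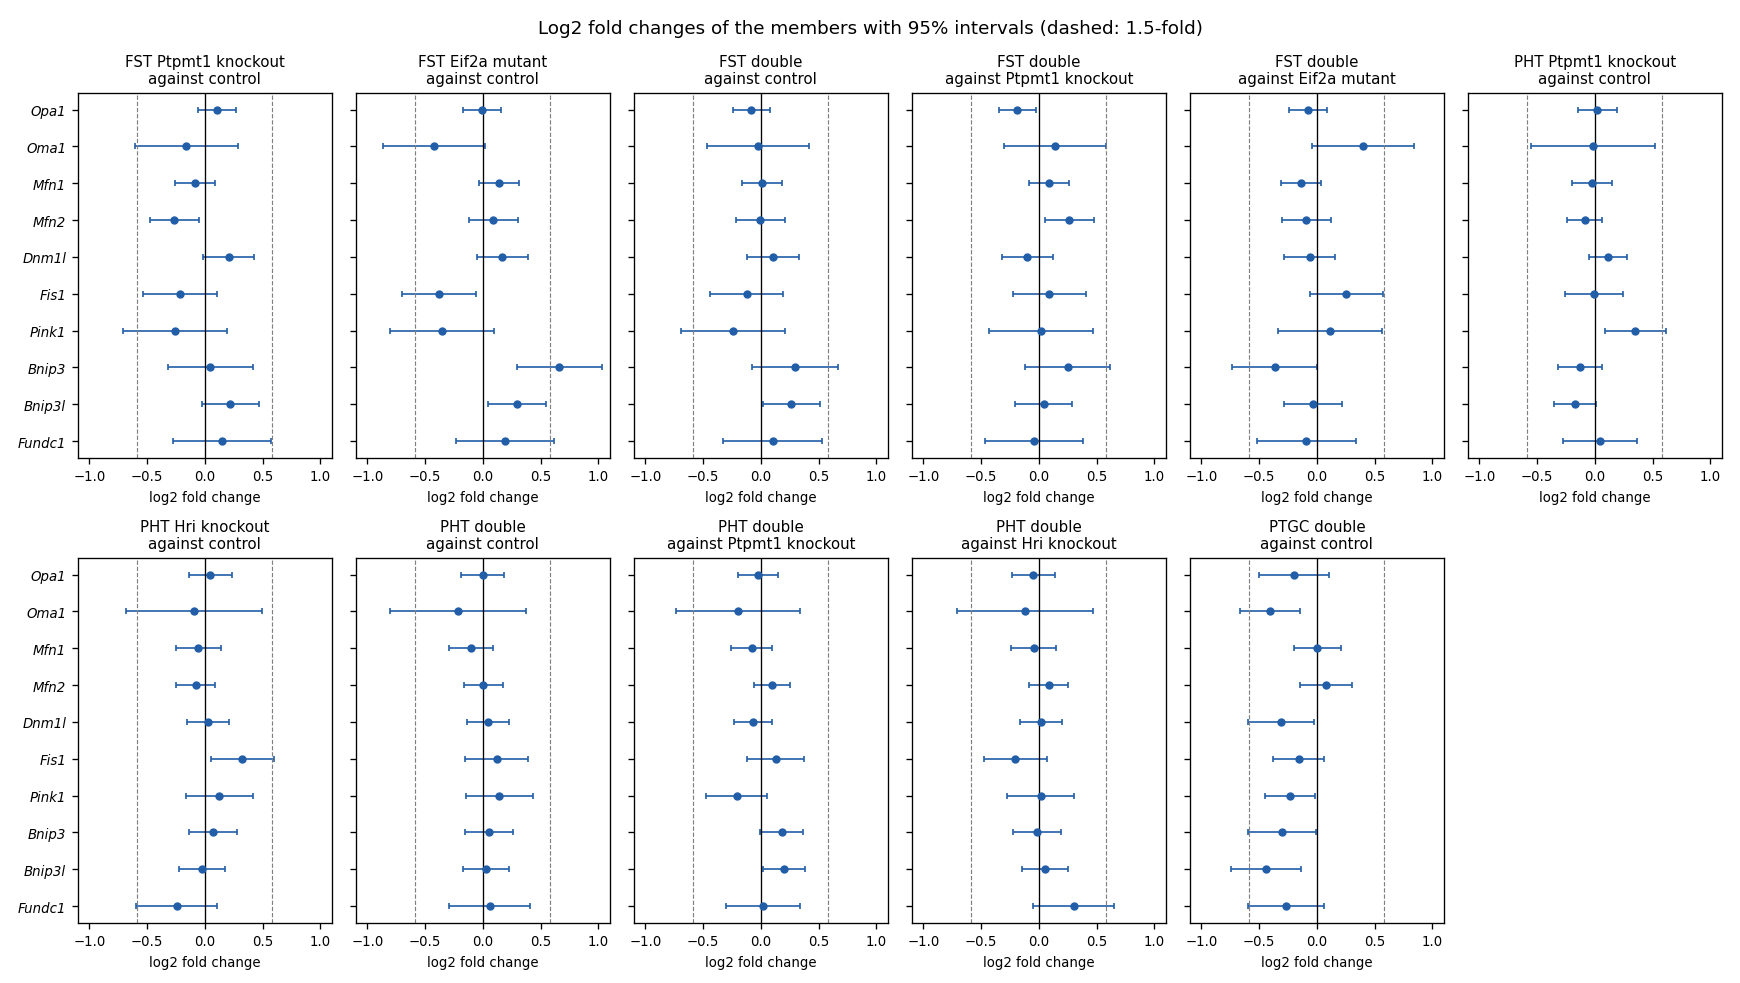
Log2 fold changes (points) with unadjusted 95% intervals (bars) of the 10 genes (rows) in the 11 comparisons of 2 groups, each panel naming the group on top of the ratio first; dashed lines mark 1.5-fold. No gene was called, and the point farthest from 0 is Bnip3 in FST Eif2a mutants against controls, at 0.66.

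The counts by comparison can be read against the share of all tested genes that met the same criterion. In FST Ptpmt1 knockouts against controls, 0 of 10 were called (0.504% of all genes), 1 had an unadjusted p under 0.05 (13.4% of all genes) and 2 had groups that did not overlap (19.1%). In FST Eif2a mutants against controls, 0 were called (0.036%), 3 had an unadjusted p under 0.05 (7.97%) and 4 did not overlap (16.3%). In FST doubles against controls the counts were 0 (0.144%), 1 (10.1%) and 2 (19.5%), against Ptpmt1 knockouts 0 (0.878%), 2 (13.8%) and 1 (17.8%), and against Eif2a mutants 0 (0.0072%), 0 (8.14%) and 0 (14.9%). The FST interaction (doubles minus Eif2a mutants, less Ptpmt1 knockouts minus controls) had 0 called (0.0216%) and 1 with an unadjusted p under 0.05 (7.06%). In no FST comparison did more than 4 of 10 genes separate the groups.

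In PHT Ptpmt1 knockouts against controls, 0 of 10 were called (0.301% of all genes), 1 had an unadjusted p under 0.05 (4.79%) and 1 had groups that did not overlap (23.6%). In Hri knockouts against controls the counts were 0 (0.02%), 1 (3.24%) and 3 (29.4%). For the doubles they were 0 (0.0267%), 0 (6.58%) and 0 (32.2%) against controls, 0 (0.327%), 1 (8.29%) and 3 (24%) against Ptpmt1 knockouts, and 0 (0.02%), 0 (5.83%) and 2 (31.3%) against Hri knockouts. The PHT interaction had 0 called (0.12%) and 0 with an unadjusted p under 0.05 (4.64%). In PTGC doubles against controls, 0 were called (0.743%), 5 had an unadjusted p under 0.05 (11.5%) and 3 did not overlap (18%). PTGC was the comparison with the most genes under the unadjusted threshold, and all 5 were lower in the doubles.

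The count models, run on recovered reads, gave nearly the same counts. With edgeR 0 of the 10 genes were called in each of the 13 comparisons. Of all genes it called 0.662% in FST Ptpmt1 knockouts, 0.0432% in Eif2a mutants and 0.151% in doubles against controls, 0.9% in doubles against Ptpmt1 knockouts, 0.0072% in doubles against Eif2a mutants and 0.036% for the interaction. In PHT the edgeR shares were 0.301% in Ptpmt1 knockouts, 0.02% in Hri knockouts and 0.0267% in doubles against controls, 0.347% in doubles against Ptpmt1 knockouts, 0.0134% in doubles against Hri knockouts and 0.1% for the interaction, and in PTGC 0.736%. DESeq2 called 0 of the 10 in 12 comparisons and 1, Bnip3, in FST Eif2a mutants against controls. It gives some genes no adjusted p, and its shares are of those that had one, 6349 to 13891 genes in FST, so they do not compare directly with those of limma and edgeR. They were 4.54% in FST Ptpmt1 knockouts, 0.302% in Eif2a mutants and 0.711% in doubles against controls, 2.26% in doubles against Ptpmt1 knockouts, 0.315% in doubles against Eif2a mutants and 0.245% for the interaction. In PHT the DESeq2 shares were 0.461% in Ptpmt1 knockouts, 0.0267% in Hri knockouts and 0.0802% in doubles against controls, 0.702% in doubles against Ptpmt1 knockouts, 0.0668% in doubles against Hri knockouts and 0.254% for the interaction, and in PTGC 1.27%.

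Among the fusion genes, Opa1 (chromosome 16, 29579334 to 29654884, GRCm38) had 1395, 1229 and 1303 normalized counts in FST doubles, 1577, 1460.0 and 1431 in Ptpmt1 knockouts, 1331, 1439 and 1363 in Eif2a mutants and 1329.6, 1402 and 1421 in controls. Each Ptpmt1 knockout was above each double and each control, by margins that are small beside the levels. The difference was -0.19 ± 0.08 in doubles against Ptpmt1 knockouts (adjusted p = 0.288) and 0.10 ± 0.08 in Ptpmt1 knockouts against controls (adjusted p = 0.605). In PHT all 9 libraries lay between 1819 and 2054, and the largest difference from control was 0.05 ± 0.09, in Hri knockouts. In PTGC Opa1 had 2340.0, 2292 and 2275 in doubles, against 2363, 2292 and 3421 in controls. Control replicate 3 stands apart there, and the difference of -0.20 ± 0.14 (adjusted p = 0.539) was -0.02 without it.

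Oma1 (chromosome 4, 103313812 to 103371868) was among the lowest of the 10 and the least precise. It had 153, 133 and 135 normalized counts in FST doubles, 124, 134 and 124 in Ptpmt1 knockouts, 72.3, 135 and 122 in Eif2a mutants and 142, 117 and 172 in controls. All groups overlapped with controls, and the lowest value belongs to Eif2a mutant replicate 1, a library that stood apart. The difference of Eif2a mutants from controls was -0.42 ± 0.21 (adjusted p = 0.639), and -0.15 without that library. In PHT it had 129 and 244 in doubles, 171, 208 and 236 in Ptpmt1 knockouts, 217 and 171 in Hri knockouts and 164 and 258 in controls, a spread within groups as wide as any difference between them. PTGC values were 204, 194 and 213 in doubles, against 267, 259 and 285 in controls. The PTGC groups did not overlap, at 75.5% of control with an interval of 63.1 to 90.3%, and the log2 fold change was -0.41 ± 0.12 (adjusted p = 0.259). Leaving out each PTGC library in turn gave -0.44 to -0.37.

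Mfn1 (chromosome 3, 32529465 to 32579239), a tethering GTPase of outer-membrane fusion, had 870.0, 955 and 849 normalized counts in FST doubles, 856, 814 and 839 in Ptpmt1 knockouts, 1047, 955 and 937 in Eif2a mutants and 912, 828 and 921 in controls. Each Eif2a mutant lay above each control (0.14 ± 0.08, adjusted p = 0.666), and the other groups overlapped with controls. It ranged from 1253 to 1463 over the 9 PHT libraries and from 1455 to 1670.1 over the 6 PTGC libraries. The PTGC difference was 0.01 ± 0.09, an interval of -0.20 to 0.21.

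Mfn2 (chromosome 4, 147873599 to 147904704), which also tethers mitochondria to the endoplasmic reticulum, had 1703, 1799 and 1596 normalized counts in FST doubles, 1434, 1202 and 1639.9 in Ptpmt1 knockouts, 1913, 1826 and 1698 in Eif2a mutants and 1753, 1716 and 1639.5 in controls. Ptpmt1 knockout replicates 1 and 2 were below every control, and replicate 3 was level with the lowest one. The log2 fold change was -0.27 ± 0.10 in Ptpmt1 knockouts against controls (adjusted p = 0.251) and 0.26 ± 0.10 in doubles against Ptpmt1 knockouts (adjusted p = 0.248). Doubles differed from controls by 0.00 ± 0.10, an interval of -0.22 to 0.21. Without Ptpmt1 knockout replicate 3 both passed the threshold (-0.37, adjusted p = 0.026, and 0.37, adjusted p = 0.046), and without replicate 2 they were -0.15 and 0.15. The same library, Ptpmt1 knockout replicate 3, had fibroblast markers at 0.291% of the signal, against 0.114 to 0.167% in the other FST libraries, and the part of this in the result was not tested.

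In PHT Mfn2 had 2903 and 2841 normalized counts in doubles, 2649.6, 2612 and 2813 in Ptpmt1 knockouts, 2735 and 2681 in Hri knockouts and 2799 and 2929 in controls. Both doubles were above every Ptpmt1 knockout (0.09 ± 0.07, adjusted p = 0.792), and the Ptpmt1 knockouts were at -0.09 ± 0.07 against controls with overlap. PTGC doubles had 3062, 3078 and 3068, inside the range of controls (2531, 3139.6 and 3092). The ratio of Mfn2 to Mfn1 was 1.91 ± 0.0433 in FST doubles, 1.70 ± 0.24 in Ptpmt1 knockouts, 1.85 ± 0.0538 in Eif2a mutants and 1.92 ± 0.146 in controls (SD, n = 3 each), a ratio of normalized counts that is not corrected for length.

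**Figure D2:**
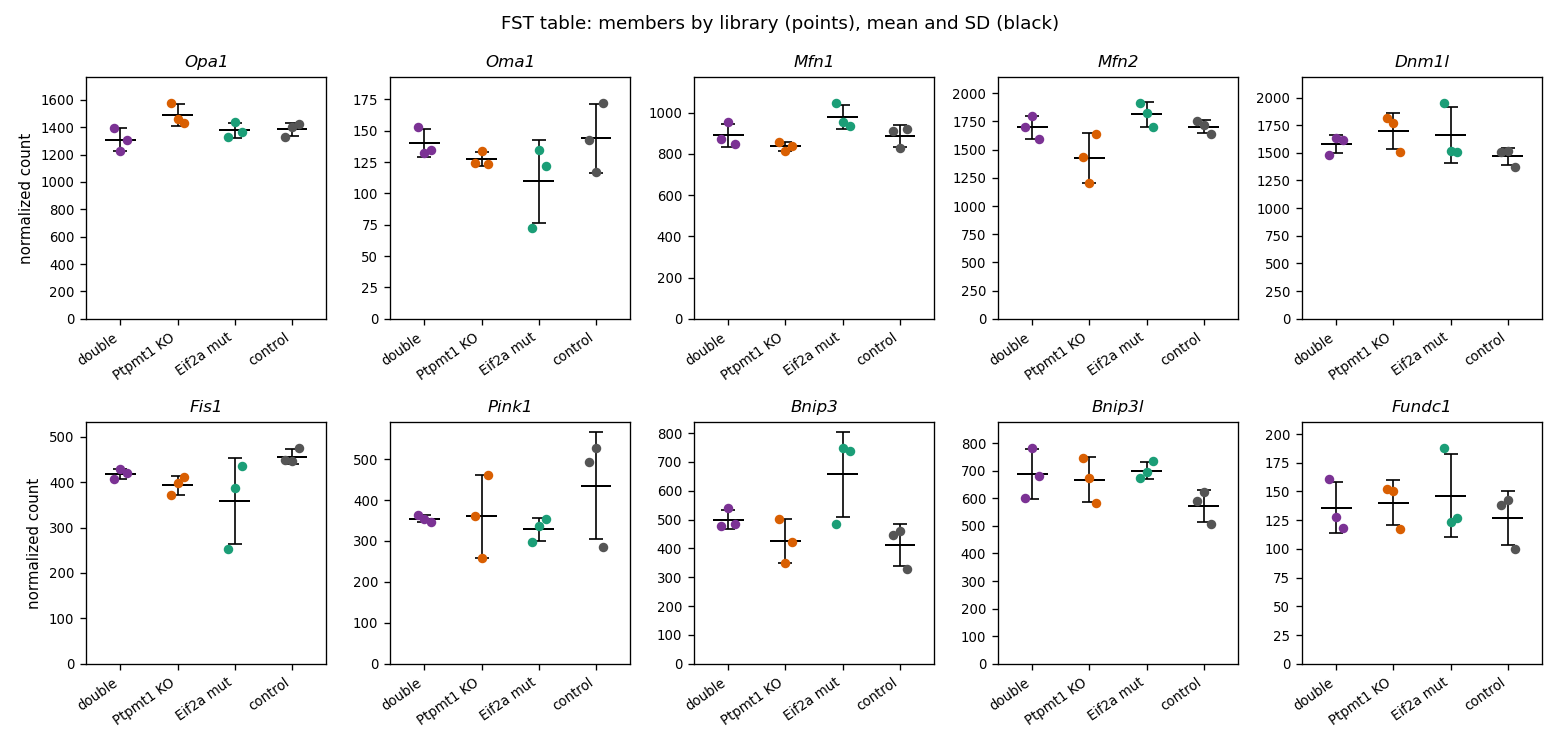
Normalized counts (y axis, from 0, own scale per gene) of the 10 genes in the 12 FST libraries (points), with mean and SD in black, for doubles, Ptpmt1 knockouts, Eif2a mutants and controls. Bnip3 had 485, 748 and 737 in Eif2a mutants against 327 to 461 in controls, so that 1 mutant lies close to the controls.

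Of the fission genes, Dnm1l (chromosome 16, 16312230 to 16358959), the dynamin-related GTPase, had 1482, 1635 and 1618 normalized counts in FST doubles, 1813, 1774 and 1507 in Ptpmt1 knockouts, 1949.9, 1521 and 1504 in Eif2a mutants and 1508, 1519 and 1374 in controls. A pair of Ptpmt1 knockouts lay above all controls and the other one inside their range (0.21 ± 0.10, adjusted p = 0.406). In PHT it had 2259 and 2356 in doubles, 2412, 2527 and 2324 in Ptpmt1 knockouts, 2181 and 2367 in Hri knockouts and 2151 and 2319.9 in controls. The Ptpmt1 knockouts were all above the controls, the nearest by about 4 counts (0.12 ± 0.08, adjusted p = 0.999). The PTGC values were 2734, 2340.1 and 2488 in doubles, against 3104, 2604 and 3756 in controls. Those groups overlapped, at -0.31 ± 0.13 (adjusted p = 0.408), and at -0.18 without control replicate 3.

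Fis1 (chromosome 5, 136953275 to 136966234), a tail-anchored protein of the outer membrane, had 406, 429 and 420.4 normalized counts in FST doubles, 371, 397 and 411 in Ptpmt1 knockouts, 254, 388 and 436 in Eif2a mutants and 448, 446 and 475 in controls. Every mutant library was below every control. Against controls the log2 fold changes were -0.12 ± 0.15 in doubles (adjusted p = 0.818), -0.22 ± 0.15 in Ptpmt1 knockouts (adjusted p = 0.579) and -0.38 ± 0.15 in Eif2a mutants (adjusted p = 0.549). These 3 comparisons share the control libraries. Without Eif2a mutant replicate 1, the library at 254, the last of them was -0.15 and the interaction, 0.47 ± 0.21 (adjusted p = 0.693), was 0.24. In PHT the Hri knockouts, at 822 and 954, were above both controls, at 727 and 688 (0.32 ± 0.13, adjusted p = 1.0), while doubles were at 659 and 894 and the Ptpmt1 knockouts at 700.1, 703 and 706. In PTGC it had 673, 661 and 730.4 in doubles, against 832, 759 and 717 in controls, with overlap (-0.16 ± 0.10).

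For removal by ubiquitin, Pink1 (chromosome 4, 138313409 to 138326307), the kinase that accumulates on damaged mitochondria, had 363, 354 and 347 normalized counts in FST doubles, 362, 258 and 461 in Ptpmt1 knockouts, 298, 336 and 353 in Eif2a mutants and 494, 527 and 285 in controls. Control replicate 3 was below all doubles while the other controls were above every other library. The difference of Ptpmt1 knockouts from controls was -0.26 ± 0.21 (adjusted p = 0.655), -0.54 without control replicate 3 and -0.10 without control replicate 2. Without Ptpmt1 knockout replicate 2 it was -0.04. In PHT the difference had the other sign, with 962, 754 and 996 in Ptpmt1 knockouts and 788 and 627 in controls. Doubles had 747 and 807 there and Hri knockouts 784 and 751. The PHT difference of Ptpmt1 knockouts from controls was 0.35 ± 0.12 (adjusted p = 0.827), 0.52 without control replicate 1 and 0.19 without control replicate 2. Whether the Ptpmt1 knockout acts on Pink1 differently in the FST and PHT lines was not tested. In PTGC it had 607, 652 and 648 in doubles, against 768, 779 and 697 in controls. No double reached a control (-0.23 ± 0.10, adjusted p = 0.416), at 85.1% of control with an interval of 73.2 to 98.9%.

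**Figure D3:**
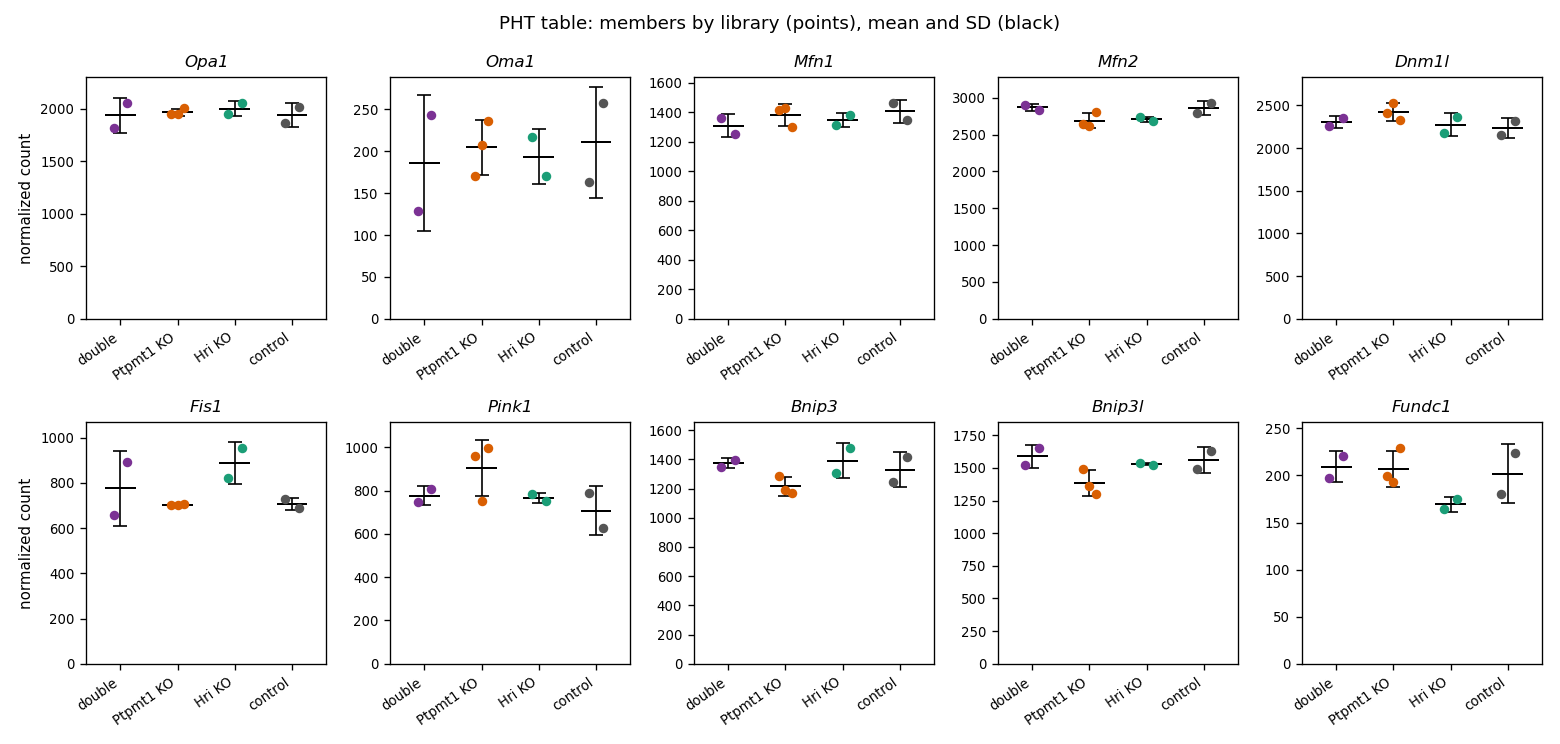
Normalized counts (y axis, from 0, own scale per gene) of the 10 genes in the 9 PHT libraries (points), with mean and SD in black, for doubles, Ptpmt1 knockouts, Hri knockouts and controls. Most groups overlap, and Fis1 in Hri knockouts (822 and 954) lies above controls (727 and 688).

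Of the mitophagy receptors, Bnip3 (chromosome 7, 138890836 to 138909519), which is induced by hypoxia in many tissues, had 476, 539 and 485 normalized counts in FST doubles, 502, 349.6 and 422 in Ptpmt1 knockouts, 485, 748 and 737 in Eif2a mutants and 446, 461 and 327 in controls. All Eif2a mutants were above all controls, and replicate 1, at 485, was much nearer to them than the other two. The log2 fold change of Eif2a mutants against controls was 0.66 ± 0.17 (adjusted p = 0.303), or 158% of control with an interval of 122 to 204%. DESeq2 on recovered reads gave 0.68 ± 0.18 and called it (adjusted p = 0.0426), and edgeR gave 0.68 and did not (adjusted p = 0.216). Without Eif2a mutant replicate 1 it was 0.87 (adjusted p = 0.0903), and with a term for sex 0.56 ± 0.22 (adjusted p = 0.929). Doubles were above controls too (0.30 ± 0.17, adjusted p = 0.586), by 0.14 without control replicate 3, and lower than Eif2a mutants with overlap (-0.37 ± 0.17, adjusted p = 0.613). Exons of an antisense gene, Gm45507, overlap Bnip3 exons over 22.3% of their length, and the strand setting is not stated. Exons of other genes also overlap 6.70% of Pink1 exons, on the same strand, and 4.67% of Dnm1l exons, on the opposite strand.

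In PHT Bnip3 had 1349 and 1399 normalized counts in doubles, 1287, 1189.6 and 1167 in Ptpmt1 knockouts, 1305 and 1477 in Hri knockouts and 1244 and 1413 in controls. Both doubles were above every Ptpmt1 knockout (0.18 ± 0.09, adjusted p = 0.638). PTGC libraries had 868, 684 and 782 in doubles, against 1065, 791 and 1040.1 in controls, with overlap (-0.31 ± 0.13, adjusted p = 0.424). The Hri knockouts differed from PHT controls by 0.07 ± 0.10, an interval of -0.14 to 0.27.

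The 250 bases before the start sites listed by RefSeq (GRCm38.p6) were searched on both strands for the amino acid response element bound by Atf4, TGATGNAA, and for the core of the hypoxia response element, ACGTG. Entries were found for 9 of the 10 genes, with 13 windows, and Bnip3l had no entry. The first motif was in 0 of the 13 windows, against 3.45% of all 32851 windows. The second was in 2 of the 13, against 16.6% of all, in 1 of the Mfn2 windows and in that of Bnip3. In Bnip3 it occurs as a palindrome, so that both strands match at overlapping places. The Bnip3 window (chr7:138909507-138909756, minus strand) is shown because this gene had the largest difference, and that of Asns (chr6:7693210-7693459, minus strand) because it is a gene of the integrated stress response that was called. Trib3, another gene of that response (3.96 ± 0.34 in FST Ptpmt1 knockouts against controls, adjusted p = 2.51e-05), had neither motif in its window. Both sequences are written 5′ to 3′, with the motifs in capitals, and a match is not evidence that a factor binds.
Bnip3: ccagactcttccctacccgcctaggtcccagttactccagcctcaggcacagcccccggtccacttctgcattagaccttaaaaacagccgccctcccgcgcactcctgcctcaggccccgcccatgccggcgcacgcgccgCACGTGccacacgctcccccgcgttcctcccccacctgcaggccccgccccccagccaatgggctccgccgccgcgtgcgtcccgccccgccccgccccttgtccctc
Asns: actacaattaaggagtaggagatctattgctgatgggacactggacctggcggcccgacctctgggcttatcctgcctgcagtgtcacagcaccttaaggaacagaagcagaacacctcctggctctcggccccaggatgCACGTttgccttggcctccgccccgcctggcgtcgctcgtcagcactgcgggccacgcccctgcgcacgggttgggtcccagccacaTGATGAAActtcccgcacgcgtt
In Asns the capitals mark the hypoxia core, on the other strand, and the amino acid response element nearer to the start.

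Bnip3l (chromosome 14, 66985239 to 67008877), also called Nix, clears mitochondria from maturing red blood cells and acts in heart muscle as well. It had 602, 782 and 680.3 normalized counts in FST doubles, 747, 676 and 582 in Ptpmt1 knockouts, 672, 696 and 734 in Eif2a mutants and 589, 622 and 507 in controls. The Eif2a mutants were all above the controls (0.30 ± 0.12, adjusted p = 0.554), and the doubles overlapped with the controls (0.26 ± 0.12, adjusted p = 0.459). In PTGC it had 967, 894 and 943 in doubles, against 1272, 1027 and 1562 in controls. All doubles were below all controls, at 73.7% of control with an interval of 59.9 to 90.7% (-0.44 ± 0.14, adjusted p = 0.292). Without control replicate 2 the difference was -0.59 and was called (adjusted p = 0.0168), and without control replicate 3 it was -0.29 (adjusted p = 0.303). In PHT it had 1526 and 1652 in doubles, 1495, 1363 and 1303 in Ptpmt1 knockouts, 1538 and 1525 in Hri knockouts and 1489 and 1628 in controls, and both doubles were above every Ptpmt1 knockout (0.20 ± 0.08, adjusted p = 0.543).

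Because Bnip3l is a red-cell gene, the signal of erythroid markers is given beside it, for the 11 of 12 markers found by symbol, none of them at 0 in any library. The embryonic globin Hbb-y was the most abundant. The 11 markers together held 0.451 and 0.783% of the signal in PHT doubles and 0.0664 to 0.303% in Ptpmt1 knockouts (exact two-sided permutation p = 0.1, the smallest this design allows). They held 0.37 to 0.536% in Hri knockouts and 0.355 to 0.436% in PHT controls. In PTGC they held 0.125 to 0.165% in doubles and 0.14 to 0.398% in controls, and in FST 0.0645 to 0.277% over all 12 libraries. In PHT this share ran the same way as Bnip3l between doubles and Ptpmt1 knockouts, and so did the PTGC means. Within PTGC controls it ran the other way, with 0.14% and 1562 counts of Bnip3l in replicate 3, and 0.398% and 1027 in replicate 2. In FST Ptpmt1 knockouts too, replicate 1 had 0.0645% and 747 counts, and replicate 3 had 0.224% and 582. PHT controls also ran the other way, and the FST double with the lowest share had the highest Bnip3l count. Within FST controls, FST Eif2a mutants, PHT Ptpmt1 knockouts, PHT Hri knockouts, PHT doubles and PTGC doubles, share and Bnip3l count ranked the libraries alike. FST control replicate 3, for example, had 0.0693% and 507 counts, and replicate 2 had 0.277% and 622. Endothelial markers averaged 0.0973% in PHT doubles and 0.1% in PHT Ptpmt1 knockouts. Epicardial markers averaged 0.0164% in these doubles and 0.019% in these Ptpmt1 knockouts. Neither marker share overlapped between the 2 groups, with p = 0.1 in the exact test. Both were lower still in PHT controls, at 0.0953 and 0.0159%, and below the Ptpmt1 knockouts with the same exact p. The part of these shares in the results was not tested.

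Fundc1 (X chromosome, 17556564 to 17572325), a receptor of hypoxia-induced mitophagy, had 161, 128 and 118 normalized counts in FST doubles, 152, 151 and 117 in Ptpmt1 knockouts, 188, 124 and 127 in Eif2a mutants and 138, 143 and 99.99 in controls. These groups all overlapped, and no FST difference from control exceeded 0.19 ± 0.20. In PHT it had 198 and 221 in doubles, 199, 193 and 229 in Ptpmt1 knockouts, 164 and 175 in Hri knockouts and 180 and 224 in controls. Both Hri knockouts were below both controls (-0.24 ± 0.16, adjusted p = 1.0) and below both doubles, which were at 0.30 ± 0.16 against them (adjusted p = 0.857). The difference from controls was -0.40 without control replicate 1 and -0.09 without control replicate 2. All Hri knockouts were male and no control was, and with a term for sex the difference from control was -0.17 ± 0.27. In PTGC it had 214, 196 and 220.2 in doubles, against 286, 202 and 279.8 in controls, with overlap (-0.27 ± 0.15, adjusted p = 0.487).

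**Figure D4:**
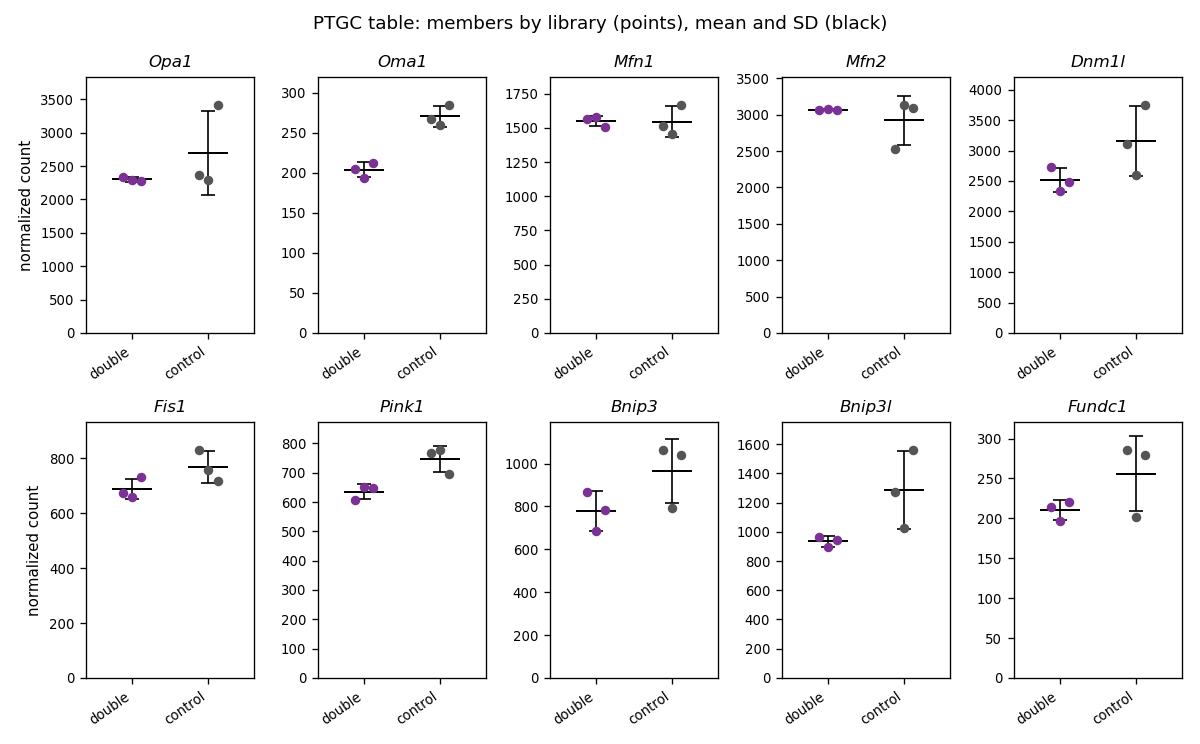
Normalized counts (y axis, from 0, own scale per gene) of the 10 genes in the 6 PTGC libraries (points), with mean and SD in black, for doubles and controls. Oma1, Pink1 and Bnip3l show doubles that are all below all controls, and control replicate 3 is the highest library for Opa1, Dnm1l and Bnip3l.

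Taking PTGC as a whole, 8 of the 10 genes had a lower mean in doubles, with a median log2 fold change of -0.25, against 0.00 over all 14128 genes tested. Mfn1 (0.01 ± 0.09) and Mfn2 (0.08 ± 0.10) were the exceptions. This median is a description, since the 10 genes were measured in the same 6 libraries. The marker signal of some other cell types did not overlap between these groups either. Mural-cell markers were at 0.132 to 0.153% in doubles and 0.168 to 0.171% in controls, and fibroblast markers at 0.165 to 0.189% in doubles and 0.138 to 0.164% in controls (exact two-sided permutation p = 0.1 each, the smallest possible). Epicardial markers averaged 0.0187% in doubles and 0.0168% in controls, with the same p from the exact test. Of the mural markers, Acta2 had a median of 15030 normalized counts in PTGC, against 3255 for Abcc9, the next highest. Rgs5, Kcnj8 and Myh11 had medians of 12.7 to 24.9. The mural share therefore mainly follows Acta2 and need not measure mural cells. Single markers were not compared between the groups. The part of these marker shares in the result was not tested. Fewer cells of a type and less RNA per cell cannot be told apart in such bulk libraries.

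Other genes of the same processes were taken from lists that cover 95 genes, of which 92 were tested. In 12 of the 13 comparisons none was called. In FST doubles against Ptpmt1 knockouts 2 of 92 were called, against 0.878% of all genes. Rhot2, a GTPase that links mitochondria to the microtubule motors, had 640.5, 685 and 664 normalized counts in doubles, against 479, 495 and 539 in Ptpmt1 knockouts (0.40 ± 0.08, adjusted p = 0.0355). Eif2a mutants had 600.1, 667 and 621 and controls 594, 603 and 562. Mtfr1, a regulator of fission, had 237, 261 and 256 in doubles, against 327, 357 and 358 in Ptpmt1 knockouts (-0.46 ± 0.10, adjusted p = 0.0357), with 241, 249 and 256 in Eif2a mutants and 276, 299 and 283 in controls. For both genes the doubles and the Ptpmt1 knockouts did not overlap.

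Those 2 calls were near the threshold. With a term for sex the adjusted p was 0.0754 for Rhot2 and 0.1 for Mtfr1, and with only the compared groups fitted it was 0.132 for both. Leaving out Ptpmt1 knockout replicate 1 or 2, control replicate 1 or 2, Eif2a mutant replicate 2 or 3, or any double left neither gene called (adjusted p = 0.0542 to 0.146), and without both FST libraries that stood apart Rhot2 was not called (adjusted p = 0.0816). Both edgeR and DESeq2 called both genes. In PHT doubles against Ptpmt1 knockouts Rhot2 was at 0.05 ± 0.08 (adjusted p = 0.909) and Mtfr1 at 0.09 ± 0.10 (adjusted p = 0.87). Neither gene was called in any other comparison.

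Levels of the 10 genes were compared with each other per kilobase of annotated exon, in controls and within each table. In FST controls the order was Mfn2 (328 ± 11.1 normalized counts per kb), Dnm1l (282 ± 15.5), Fis1 (266 ± 9.43), Bnip3 (182 ± 32.4), Opa1 (176 ± 6.13), Pink1 (163 ± 49.2), Bnip3l (148 ± 15.4), Mfn1 (145 ± 8.44), Oma1 (67.1 ± 12.8) and Fundc1 (54.0 ± 10.01) (SD, n = 3). Ranges of neighbours overlapped except between Mfn2 and Dnm1l, between Fis1 and Bnip3, and between Mfn1 and Oma1. In PHT controls Bnip3 came first (587 ± 52.8, n = 2), with a range that overlapped that of Mfn2 (551 ± 17.8). In PTGC controls Dnm1l came first (606 ± 111, n = 3), with a range that overlapped that of Mfn2 (562 ± 65.2). Oma1 and Fundc1 came last in all 3 tables, and their ranges overlapped each other in each. The exon length counts all annotated transcripts, so that a gene with long unused exons is placed too low.

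**Figure D5:**
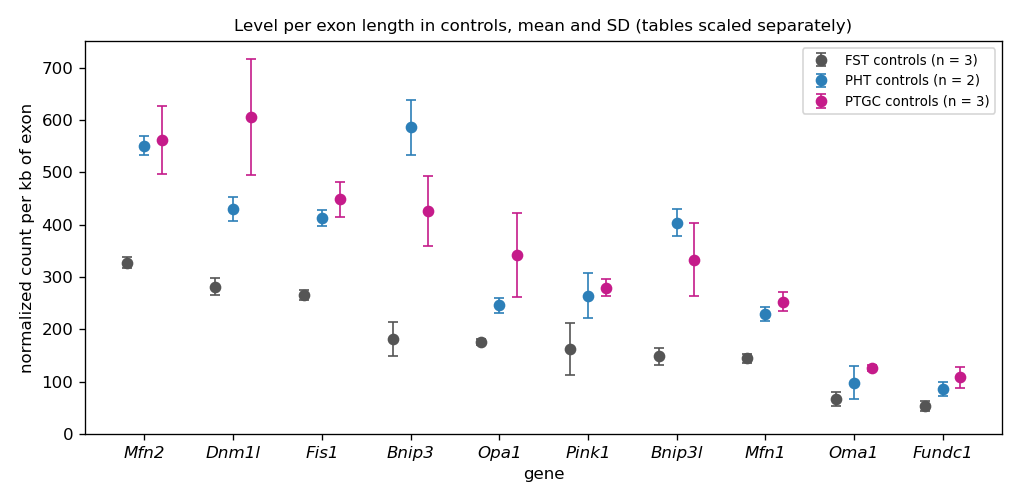
Normalized count per kb of annotated exon (y axis, from 0) in the controls of each table, mean (points) and SD (bars), genes in the order of FST controls. Mfn2 and Dnm1l are near the top in all 3 tables, and Oma1 and Fundc1 are lowest; the tables were scaled separately.

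Over all 27 libraries, with each table centred on its own mean, 27 of the 45 pairs had a positive correlation of log2 values and 18 a negative one, with a median r of 0.069. The highest were Dnm1l with Bnip3l (0.717), Dnm1l with Fundc1 (0.698) and Bnip3 with Bnip3l (0.679), and the lowest was Mfn1 with Fis1 (-0.469). The tables differed in this: 35 of the 45 pairs were positive over the 6 PTGC libraries, with a median r of 0.516, against 20 over the 12 FST libraries (median -0.047) and 22 over the 9 PHT libraries (median -0.010). Dnm1l with Bnip3l was at 0.586 in FST, -0.272 in PHT and 0.977 in PTGC, where control replicate 3 was the highest library for both. Libraries share their depth, scaling and, within a table, their groups, and these values are a description.

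Of 10844 genes whose mean reached 50 in all 3 tables, the 3 most alike in pattern were found for each of the 10 by the same correlation over 27 libraries. For Bnip3 they were Pdk1, the pyruvate dehydrogenase kinase 1 gene (r = 0.820), Ak4, an adenylate kinase of the mitochondrial matrix (0.776), and Car8 (0.741). For Pink1 they were Pdk4, another pyruvate dehydrogenase kinase (0.814), Lama2 (0.776) and Pik3ip1 (0.772). For Dnm1l they were Cog5 (0.935), Cops2 (0.929) and Matr3 (0.923), the highest coefficients found. The genes nearest to the others were Metap2 for Opa1 (0.888), Bcap31 for Oma1 (0.772), Pakap for Mfn1 (0.793), Klhl21 for Mfn2 (0.815), Nans for Fis1 (0.851), Hprt for Bnip3l (0.836) and Rpa3 for Fundc1 (0.825). The coefficient differed between tables, and that of Pink1 with Pdk4 was 0.917 in FST, 0.567 in PHT and 0.427 in PTGC. Some named pairs were not alike in every table. Mfn2 with Klhl21 was at 0.936 in FST, -0.000 in PHT and 0.493 in PTGC, and Pink1 with Pik3ip1 at 0.908, 0.692 and -0.147.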

How the data were processed

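RNA was sequenced from cardiomyocytes of mouse lines with a ribosomal RNA removal kit (KAPA RNA Hyper with RiboErase), per the labels' protocols. The submitters' processing notes name STAR 2.5.3a, DESeq2 1.12.4 and mm10 without roles, while the sources used here give no read counter, annotation or strand setting. Each deposited table holds normalized signal, meaning reads over a size factor per library, and since the 3 tables were scaled separately, tests stayed within a table. Recovered reads were whole (tolerance 0.1) for 100% of values and gave depths of 1887978 to 19405261 reads per library.

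Genes were tested with limma 3.58.1 (R 4.3.3; trended prior variance) after a log2 transform with a pseudocount of 1, fitting every group of a table together. Tests were two-sided and adjusted by Benjamini-Hochberg over the genes tested, with a threshold of 0.05. Genes with a value of at least 10 in as many libraries as the smallest group were tested, 13896 in FST, 14965 in PHT and 14128 in PTGC. Alternatives were edgeR 4.0.16 and DESeq2 1.42.0 on recovered reads, other pseudocounts (0.5 and 5), scalings, filters and terms, and leaving out each library. The scripts were tested on simulated data. Coordinates and exon lengths come from the GENCODE annotation of GRCm38, matched by symbol. The named genes are the 10 members in every comparison, called genes of the wider lists, the 3 genes most like each member, the targeted genes and Asns. The members and lists were chosen with earlier results of these data known. Of the wider lists, Marchf5 was not found by symbol, and 26 symbols in each table had been turned into dates.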

Additional observations from a re-analysis of the deposited data

How the results depend on the processing

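The count of called members was 0 in all 13 comparisons and stayed 0 with pseudocounts of 0.5 and 5, without a filter, with TMM scaling, with a term for sex, with only the compared groups fitted, with edgeR, and without FST double replicate 2 and Eif2a mutant replicate 1 together. DESeq2 raised it to 1 in FST Eif2a mutants against controls (Bnip3), and gave no adjusted p for Oma1 and Fundc1 in FST Ptpmt1 knockouts against controls and in doubles against Eif2a mutants. With sample quality weights it was 4 in FST Ptpmt1 knockouts against controls (Mfn2, Dnm1l, Pink1, Bnip3l), 3 in Eif2a mutants against controls (Bnip3, Bnip3l, Pink1), 1 in doubles against Ptpmt1 knockouts (Mfn2), 1 in doubles against Eif2a mutants (Bnip3) and 8 in PTGC (all but Opa1 and Mfn1). Those weights ranged from 0.175 to 13.1 over the PTGC libraries, control replicate 1 having the highest, and the fit then called 4502 genes in PTGC, against 105 without weights. Leaving out 1 library gave counts of 0 to 1 in FST Ptpmt1 knockouts against controls and in doubles against Ptpmt1 knockouts (Mfn2, without knockout replicate 3) and in PTGC (Bnip3l, without control replicate 2). In the other comparisons it stayed 0. The causes were not tested.

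Of 2520 values of members under alternatives, 21 passed the threshold that the reported fit did not, 17 of them with quality weights. The number of called values that changed direction was 0, but the reported fit called no member and so had no call that could change. Among values called in neither fit, 133 changed sign, the largest of them 0.24 in the reported fit. Counts over all genes moved more. In FST Ptpmt1 knockouts against controls 70 genes were called, 21 with a sex term, 325 with DESeq2, 2837 with weights and 21 to 847 without 1 library. For FST doubles against Ptpmt1 knockouts these were 122, 58, 308, 1637 and 29 to 324. In Eif2a mutants against controls 5 were called, 42 with DESeq2 and 1134 with weights, and in FST doubles against controls 20, 93 and 845. The other FST counts were 1, 20 and 55 in doubles against Eif2a mutants and 3, 32 and 324 for the interaction. In PHT Ptpmt1 knockouts against controls 45 were called and 69 with DESeq2, in PHT doubles against Ptpmt1 knockouts 49, 29 with a sex term and 105 with DESeq2, for the PHT interaction 18 and 38 with DESeq2, and in PTGC 105, 179 with DESeq2 and 57 to 538 without 1 library. The other PHT comparisons had 3 or 4, and 0 to 17 under alternatives.

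No paired analysis was possible because the labels give the groups no shared replicate numbers, and the numbers used here only name libraries in accession order. Precision was lowest for Oma1, whose intervals lay within 1.5-fold in 3 of 11 comparisons, followed by Bnip3 with 6 and Pink1 and Fundc1 with 7 each. Of the 32 differences between 2 groups of at least 0.2 on the log2 scale, none of them called, leaving out 1 library moved 23 by over 1.5 times and changed the sign of 2. With sex tied to group in PHT, a difference from control in Hri knockouts or doubles and one between sexes cannot be told apart except through the sex term. That term rests on the PHT Ptpmt1 knockouts, the only group there with both sexes, with 1 male among 3. It also takes the sex difference as equal in all groups. Protein levels, Opa1 cleavage and mitophagy itself were not measured.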
